A study of Mus musculus with 24 samples.

Results

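Cytoplasmic ribosomal protein genes encode the protein part of the ribosome in the cytosol, the particle that translates messenger RNA. The members were all array probes annotated to a symbol made of Rpl or Rps and a number (with an optional letter), or to Rplp0, Rplp1, Rplp2 or Rpsa. Pseudogenes, the Rps6k kinases and the Mrpl and Mrps genes of mitochondria were left out. This gave 89 of the 45281 probes of the array, for 60 genes, of which 25 belong to the small (Rps) and 35 to the large (Rpl) subunit. Tests were limited to probes detected (detection p below 0.01) on each of the 3 arrays of some group, which kept 72 of the 89 probes and 12668 probes in all. The 72 probes stand for 53 genes, with 29 probes of 22 small-subunit genes and 43 probes of 31 large-subunit genes. Of the 17 probes not kept, 13 were detected on no array. No probe was kept for 7 genes (Rpl14, Rpl17, Rpl39l, Rpl6, Rps20, Rps23 and Rpsa).

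Messenger RNA was read by hybridization to short probes on Illumina mouse WG-6 v2 arrays with a single colour. Total RNA came from bone marrow of C57Bl/6 (B6) and DBA2 (D2) mice, sorted into 4 cell types. LSK cells, which lack lineage markers and carry Sca-1 and c-Kit, hold the multilineage stem and early progenitor cells. L-S-K+ cells, which carry c-Kit without Sca-1, are committed progenitors, Gr1+ cells are myeloid and Ter119+ cells erythroid. Each of the 8 groups (4 cell types, 2 strains) had 3 arrays (n = 3), 24 in all. The labels give no age, treatment or altered gene, and do not say that the replicates of a group are separate animals, so errors and p-values measure the spread between these arrays, which may be technical.

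A ribosome has a small subunit, which reads the message, and a large subunit, which joins the amino acids. Its proteins are made in matched amounts in growing cells, and their messengers are among the most abundant in a cell. Most of them start with a run of pyrimidines (C or T), through which their translation answers to growth signals. Blood formation is sensitive to the dose of single ribosomal proteins: in human patients, loss of 1 copy of genes such as RPS19 causes Diamond-Blackfan anaemia, a failure of red cell production.

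Levels below are log2 values after background correction and quantile normalization, so they are relative to the other messengers on the same array. The share of all probes detected per array ran from 12.6% to 27.4%. D2 LSK replicate 2 (12.6%) and D2 progenitor replicate 1 (17.5%) had the fewest detected probes. All 6 measured granulocyte markers were highest in Gr1+ cells and all 5 measured erythroid markers in Ter119+ cells. Of the 4 measured LSK markers 3 were highest in LSK cells. Mecom was low in all 8 groups (means of 4.53 to 4.93) and did not set LSK cells apart. Of the 6 progenitor markers Mpo, Elane and Ctsg were highest in progenitors, while Kit, Cd34 and Gata2, of which Kit and Cd34 are also on the LSK list, were highest in LSK cells. Both mature cell types also carried markers of other cells. Over the 6 measured granulocyte markers of 8 listed, the mean level was 11.8 to 12.3 on the Ter119+ arrays, against 13.9 to 14.1 on the Gr1+ arrays. In progenitors this mean was 8.54 to 8.86 in B6 and 9.49 to 11.5 in D2, without overlap. All 6 were detected in every group. Over the 3 measured B cell markers of 5 listed, it was 8.77 to 9.41 on the Ter119+ arrays and 5.06 to 6.56 on all others. Over the 3 measured T and NK cell markers of 4 listed, it was 7.41 to 7.93 on the Gr1+ arrays, 6.04 to 7.10 on the Ter119+ arrays and 5.67 to 6.45 in progenitors. These 3 markers did not run alike. Cd3d averaged 7.18 in B6 and 10.35 in D2 Gr1+ cells against 4.30 and 4.74 in progenitors. Cd3e averaged 6.48 in B6 and 4.76 in D2 Gr1+ cells against 4.21 and 4.24. Nkg7 averaged 8.71 and 8.45, below its 10.45 and 8.77 in progenitors. The monocyte mean (3 of 4 listed) was 5.37 to 5.88 on the Gr1+ and 5.25 to 5.73 on the Ter119+ arrays, against 4.41 to 4.72 in progenitors. The part of these markers in the results below was not tested.

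Within each probe, the level on an array was set against the probe's mean over the 24 arrays, and the median over the 72 probes was taken per array. For LSK cells this median deviation was 0.52, 0.58 and 0.51 on the B6 arrays and 0.41, 0.64 and 0.42 on the D2 arrays. Progenitor arrays gave 0.40, 0.55 and 0.25 in B6 and 0.58, 0.41 and 0.26 in D2. LSK cells and progenitors overlapped, and both lay above all arrays of the other cell types. In Ter119+ cells the values were -0.02, 0.00 and -0.15 in B6 and -0.35, -0.43 and -0.49 in D2, so that the strains did not overlap there. Gr1+ cells were lowest, with -0.52, -0.78 and -0.61 in B6 and -0.55, -0.75 and -0.69 in D2. As a share of the background-corrected intensity of the whole array, before normalization, the members took 8.74% ± 0.627 (SD, n = 3) in LSK cells of B6 and 8.56% ± 0.52 in those of D2. The share was 7.78% ± 1.45 and 8.29% ± 1.33 in B6 and D2 progenitors, 6.18% ± 0.297 and 5.15% ± 0.341 in Ter119+ cells, and 4.67% ± 0.209 and 4.61% ± 0.179 in Gr1+ cells. The 2 arrays with the fewest detected probes gave the highest median deviations of their groups (0.64 and 0.58).

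**Figure D1:**
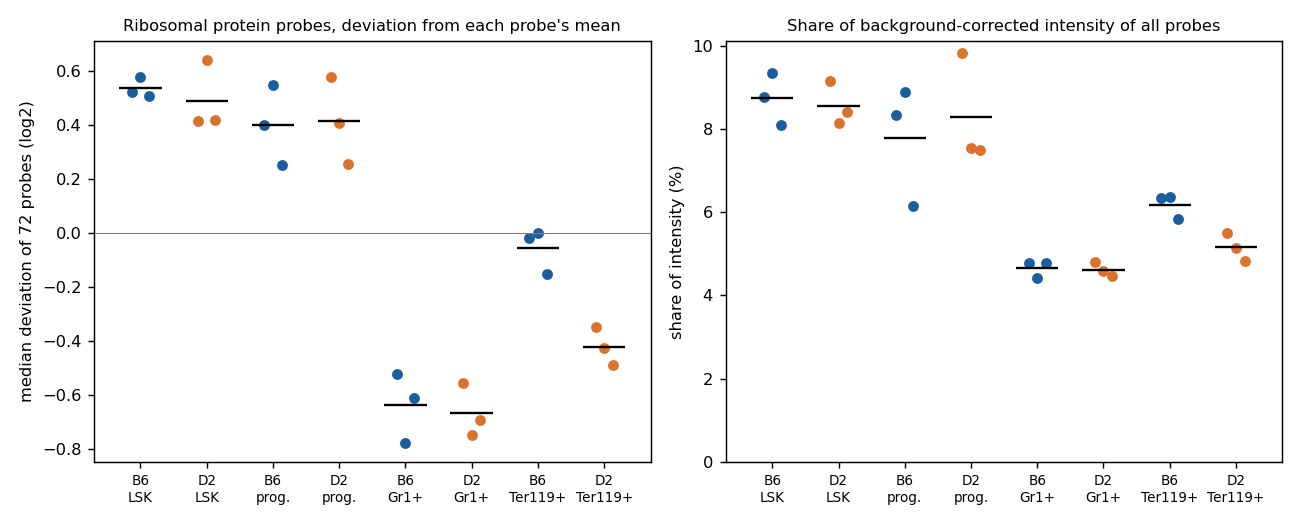
Median deviation of the 72 ribosomal protein probes from each probe's own mean (left, log2) and their share of the background-corrected intensity of all probes (right, percent), by group; each point is 1 array, lines are group means, blue is B6 and orange is D2. LSK cells and progenitors lie above all Gr1+ and Ter119+ arrays in the left panel, and B6 and D2 Ter119+ arrays do not overlap there.

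The levels themselves spanned nearly the whole range of the array. Ranked by mean level, the first probes were ILMN_2946482 of Rpl23 (14.21), ILMN_3126986 of Rps24 (14.09) and ILMN_2717549 of Rps2 (14.01), and the last were ILMN_1222250 (5.05) and ILMN_2688863 (4.88) of Rpl21 and ILMN_2737090 of Rps4l (4.79). A probe's level also depends on how well it binds, so these ranks do not order the genes. Of the 72 probes, 60 were detected on all 24 arrays and 12 on fewer.

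The first comparison between cell types asked how the genes differ between committed progenitors and the Gr1+ cells of the myeloid branch. Nearly all were lower in Gr1+ cells: 65 of the 72 probes passed the test as lower and 3 as higher. Over all kept probes, 37.8% were called lower and 29.1% higher (limma's moderated test, adjusted by Benjamini and Hochberg over the 12668 probes, threshold 0.05). The median difference of the members was -1.11 (2.15-fold lower), against -0.11 for all kept probes. Of the 53 genes, 46 were lower by every kept probe. In bulk samples such as these, less RNA per cell and fewer cells of a type cannot be told apart.

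For 47 probes all 6 Gr1+ arrays lay below all 6 progenitor arrays, as they did for 26.2% of all kept probes. In each strain alone 55 of the members were lower, as were 25.5% of all kept probes, with medians of -1.08 in B6 and -1.07 in D2. Among the 60 probes detected on every array, which did not need a high group to be kept, 55 were lower and 2 higher, with a median of -1.13. The share of all probes detected on every array is not given here, so this count has no matched background. Split by mean level into sets of 24, the dimmest, middle and brightest members had medians of -1.18, -1.18 and -0.70. Leaving out the 2 arrays with the fewest detected probes left 65 lower and 3 higher.

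Both subunits took part. In the small subunit 24 of 29 probes were lower and 1 higher, with a median of -1.08. In the large subunit 41 of 43 were lower and 2 higher, with a median of -1.14. The genes of the stalk (Rplp0, Rplp1, Rplp2 and Rpl12), the flexible arm of the large subunit that recruits the translation factors, were all lower, with differences from -1.99 to -0.78.

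Rpl22, a large-subunit protein that is not essential for translation and is needed for T cell development in mice, had the lowest difference. Its level was 9.20, 8.78 and 9.19 in B6 progenitors and 9.17, 9.79 and 9.58 in D2 progenitors. On the Gr1+ arrays it was 6.91, 7.06 and 6.89 in B6 and 6.56, 7.18 and 7.06 in D2. All Gr1+ arrays were below all progenitor arrays, and the difference was -2.34 ± 0.16 (SE), 5.07-fold lower (adjusted p = 1.09e-11). Rpl22 was also lower in progenitors than in LSK cells, where it read 10.21, 9.84 and 10.43 in B6 and 10.34, 10.45 and 10.58 in D2 (-1.02 ± 0.16, adjusted p = 2.48e-05). It stepped down from LSK cells to progenitors and again to Gr1+ cells, with no overlap at either step. With median scaling the first of these steps no longer passed (adjusted p = 0.0843).

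Rplp0, the stalk protein that anchors the other stalk proteins, read 9.12, 8.59 and 8.89 in B6 progenitors and 8.85, 8.50 and 8.06 in D2. In Gr1+ cells it read 6.71, 6.35 and 7.07 in B6 and 6.90, 6.71 and 6.34 in D2. The groups did not overlap, and Rplp0 was 3.97-fold lower (-1.99 ± 0.21, adjusted p = 2.01e-08). Rps2, a small-subunit protein near the entry of the message, read 13.39, 13.53 and 14.33 in B6 progenitors and 13.45, 14.02 and 13.90 in D2 by probe ILMN_2946616, and 11.79, 11.40 and 11.63 in B6 and 11.92, 11.95 and 12.10 in D2 Gr1+ cells. The groups were again apart, with a difference of -1.97 ± 0.15 (adjusted p = 9.54e-11), and the other Rps2 probe gave -1.35. Next came the large-subunit genes Rpl4 (-1.95 ± 0.14), Rpl31 by probe ILMN_1221124 (-1.93 ± 0.17) and Rpl13a (-1.75 ± 0.13), none of them overlapping. The other Rpl31 probes were also called lower, ILMN_3073486 at -1.45.

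Rpl3l rose. It is a copy of Rpl3 best known from heart and skeletal muscle. Its level was 4.79, 4.89 and 4.55 in B6 progenitors and 5.30, 4.66 and 4.98 in D2, and 7.72, 7.80 and 8.09 in B6 and 8.04, 7.97 and 8.21 in D2 Gr1+ cells. All Gr1+ arrays were above all arrays of the other cell types, and the measured rise over progenitors was 8.64-fold (3.11 ± 0.18, adjusted p = 8.79e-13). Only 1 of 3 progenitor arrays detected it in each strain, so the size of the rise is uncertain. Rpl3 itself, measured by a different probe, had a difference of -0.46 and was called lower (adjusted p = 0.021).

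The other probes called higher belong to genes whose remaining probes fell. Probe ILMN_2946482 of Rpl23, a large-subunit protein, read 13.85, 13.75 and 13.44 in B6 and 13.53, 13.78 and 13.85 in D2 progenitors. The Gr1+ arrays read 14.62, 14.62 and 14.53 in B6 and 14.27, 14.53 and 14.33 in D2. It rose without overlap (0.78 ± 0.14, adjusted p = 2.56e-05), while ILMN_1238227 (-1.25) and ILMN_2742807 (-0.71) of the same gene fell. Probe ILMN_2482591 of Rps13, a small-subunit protein, rose with overlap (0.35 ± 0.13, adjusted p = 0.0179) and its other probe fell (-1.16). The rise of the Rps13 probe did not pass with median scaling, with scaling to the 75th percentile or in B6 alone (adjusted p up to 0.218). The probes not called were those of Rps14 (-0.33), Rps25 (-0.44), Rps4l (-0.23) and ILMN_1377921 of Rps9 (-0.23). Rps14, whose loss in humans is tied to the anaemia of the 5q- syndrome, was at -0.33 ± 0.17 (adjusted p = 0.0648).

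**Figure D2:**
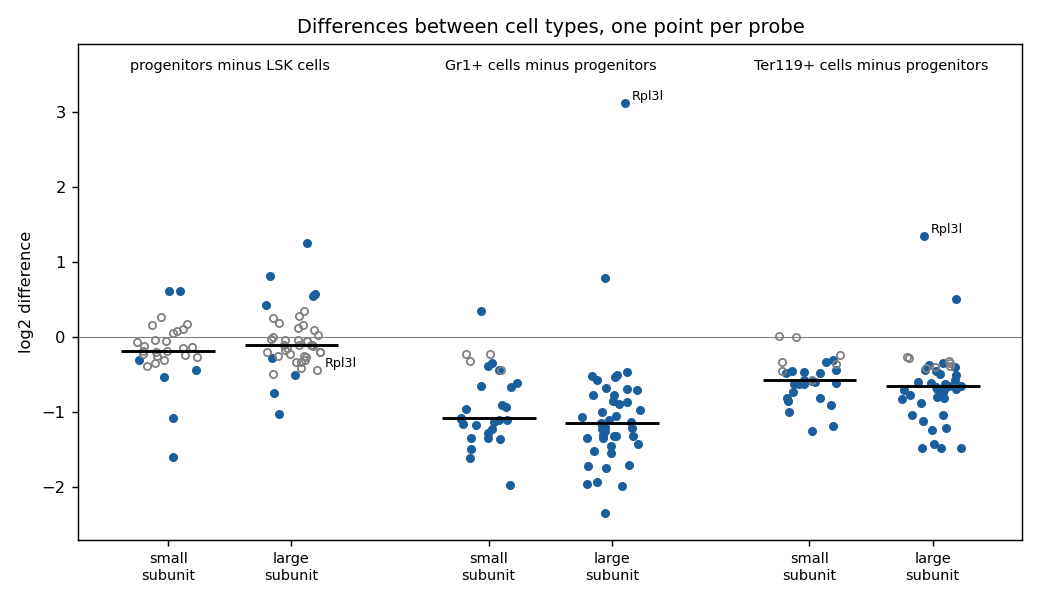
Log2 differences of the 72 probes in the comparisons between cell types, split by subunit; each point is 1 probe, filled points passed the test (adjusted p under 0.05), lines are medians. In Gr1+ cells the medians were -1.08 (small) and -1.14 (large), in Ter119+ cells -0.57 and -0.65, and Rpl3l stands above the other probes in both.

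Because the members moved together, the sequences around the annotated starts of the genes named above are shown. RefSeq (build GRCm38.p6) gave a promoter for 44 of the 53 genes. The windows hold 40 bases before the annotated start and the first 30 bases of the transcript, 5′ to 3′ on the gene's strand. The annotated start is base 41. Capitals mark every run of 6 or more pyrimidines that begins with C, wherever it lies in the window. The first 6 genes had the lowest differences in Gr1+ cells and the last 3 the probes that rose.
Rpl22, chr4:152325686-152325755, plus strand: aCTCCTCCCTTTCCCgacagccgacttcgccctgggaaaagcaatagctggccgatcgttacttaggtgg
Rplp0, chr5:115559427-115559496, plus strand: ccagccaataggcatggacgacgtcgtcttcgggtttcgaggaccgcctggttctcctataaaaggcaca
Rps2, chr17:24720023-24720092, plus strand: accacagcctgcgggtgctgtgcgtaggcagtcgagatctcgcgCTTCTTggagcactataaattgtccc
Rpl4, chr9:64173347-64173416, plus strand: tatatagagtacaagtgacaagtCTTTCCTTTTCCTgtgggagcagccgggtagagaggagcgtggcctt
Rpl31, chr1:39367811-39367880, plus strand: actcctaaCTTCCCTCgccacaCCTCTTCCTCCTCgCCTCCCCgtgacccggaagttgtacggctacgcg
Rpl13a, chr7:45128716-45128785, minus strand: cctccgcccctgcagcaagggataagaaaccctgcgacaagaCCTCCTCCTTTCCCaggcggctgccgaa
Rpl3l, chr17:24727786-24727855, plus strand: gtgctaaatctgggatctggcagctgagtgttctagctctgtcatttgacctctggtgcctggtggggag
Rpl23, chr11:97782410-97782479, minus strand: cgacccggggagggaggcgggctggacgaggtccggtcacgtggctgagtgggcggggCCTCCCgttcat
Rps13, chr7:116334161-116334230, minus strand: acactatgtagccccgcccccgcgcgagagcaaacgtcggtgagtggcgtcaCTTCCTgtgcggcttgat

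Searched on the gene's strand, 32 of the 44 windows (72.7%) held such a run, against 45.6% of the windows of all 27025 genes with a promoter. A run that reached the annotated start or lay after it was found in 25 of the 44 (56.8%) and in 23.1% of all. The letters CGGAAG, the core bound by ETS factors, were found on either strand in 15 of the 44 (34.1%) and in 7.64% of all, and their reverse strand can overlap a pyrimidine run. TATAAA was found on either strand in 3 (6.82%) and in 4.13% of all. Of the 9 windows printed, those of Rplp0 and Rpl3l hold no such run, and in those of Rpl22 and Rpl4 it lies wholly before the annotated start.

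Ter119+ cells were compared with the same progenitor arrays to ask how the genes differ on the erythroid branch, so the 2 sets of differences share their controls. Here 56 of the 72 probes were lower and 2 higher, where 30.2% of all kept probes were lower and 24.4% higher. The median of the members was -0.61 (1.53-fold lower), against -0.08 for all kept probes. Of the 53 genes, 37 were lower by every kept probe. For 24 probes the Ter119+ arrays lay wholly below the progenitor arrays, as for 14.9% of all kept probes.

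The small subunit had 22 of 29 probes lower with a median of -0.57, and the large subunit had 34 of 43 lower and 2 higher with a median of -0.65. Among the 60 probes detected everywhere, 49 were lower and 1 higher, with a median of -0.61, again without a matched share of all probes. In both strains, each taken alone, 24 of the members were lower, as were 15.4% of all kept probes. In B6 alone 27 were lower and 1 higher, with a median of -0.42, against -0.10 for all kept probes. In D2 alone 54 were lower and 2 higher, with a median of -0.84, against -0.06 for all kept probes. The share of all kept probes called in each strain alone is not given here. This difference between the strains was tested per probe as part of the interaction below, where no member passed. On the same arrays, the granulocyte marker mean stood at 11.8 to 12.1 in B6 and 12.2 to 12.3 in D2 Ter119+ cells, and the B cell marker mean at 8.77 to 8.91 and 9.06 to 9.41. The progenitor marker mean was 8.89 to 9.17 in B6 and 8.32 to 8.63 in D2 Ter119+ cells, and the T and NK cell mean 6.47 to 7.10 and 6.04 to 6.28. None of these 4 ranges overlapped between the strains. The erythroid marker mean did (11.8 to 12.4 in B6 and 11.9 to 12.3 in D2), as did the LSK, monocyte and megakaryocyte means. Single markers also ran against their list mean. Ngp (10.74 in B6 and 10.22 in D2) and Vpreb1 (9.29 and 8.98) were lower in D2, while the others of their lists were higher. Gata2 (8.13 and 8.20) and Cd3d (5.66 and 5.92) were higher in D2, while the others of their lists were lower. The part of these markers in the strain difference was not tested.

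The lowest differences were those of Rpl31 by probe ILMN_1221124 (-1.48 ± 0.17, adjusted p = 9.33e-08), Rpl38 by ILMN_2594971 (-1.48 ± 0.19), Rplp0 (-1.48 ± 0.21), Rpl22 (-1.43 ± 0.16), Rps24 by ILMN_2625060 (-1.25 ± 0.20) and Rpl21 by ILMN_1225201 (-1.24 ± 0.30). Rpl31 read 9.20, 8.16 and 8.87 in B6 and 8.72, 7.93 and 8.20 in D2 Ter119+ cells, below its 9.64 to 10.20 in progenitors. Rpl22 read 7.86, 8.08 and 7.59 in B6 and 7.47, 7.82 and 8.32 in D2 Ter119+ cells, which put it between progenitors and Gr1+ cells with no overlap on either side. Rpl3l was again higher, at 6.82, 5.56 and 6.24 in B6 and 6.50, 5.96 and 6.13 in D2 Ter119+ cells (2.54-fold over the same little-detected progenitor level, 1.34 ± 0.18, adjusted p = 1.95e-06), and its Ter119+ arrays lay wholly below its Gr1+ arrays. The Rpl23 probe ILMN_2946482 was higher too (0.50 ± 0.14, adjusted p = 0.00368), with overlap, and lost its call in B6 alone (adjusted p = 0.121).

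Genes that cause Diamond-Blackfan anaemia in humans were lower in both mature cell types: all 9 probes, of 7 genes, were called lower in Gr1+ cells (median -1.08) and in Ter119+ cells (median -0.63), against 37.8% and 30.2% of all kept probes. With median scaling 8 were called in each, and with 75th percentile scaling 8 and 6. Rps19, the gene most often affected in patients, had a difference of -1.17 in Gr1+ and -0.63 in Ter119+ cells. The lowest of the 9 in both was ILMN_2625060 of Rps24 (-1.49 and -1.25). The highest was another Rps24 probe, ILMN_3126986 (-0.35 and -0.31). Rps24 probe ILMN_1214875, also among the 9, was detected on no Gr1+ array. For all 72 members the medians were -1.11 and -0.61, near those of these 9 probes. Rps14, which is not on this list and was not called in Gr1+ cells, was called lower in Ter119+ cells (-0.45). With median or 75th percentile scaling Rps14 was not called there.

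Committed progenitors and LSK cells differed little by comparison. Of the 72 probes 7 were higher and 9 lower in progenitors, where 21.4% of all kept probes were higher and 18.4% lower. The median was -0.13, against 0.04 for all kept probes. With median scaling it was 0.10, so the direction of the members as a set is not settled in this comparison. In both strains, each taken alone, 4 of the members were lower and 3 higher. The matching share of all kept probes is not given here.

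Single probes did move. Probe ILMN_1214875 of Rps24 fell most. Rps24 is a small-subunit protein whose messenger is spliced into several forms. In LSK cells this probe read 6.93, 7.26 and 7.14 in B6 and 7.04, 6.39 and 7.21 in D2, and in progenitors 4.99, 5.57 and 5.40 in B6 and 5.39, 5.64 and 5.39 in D2. The groups did not overlap and the probe was 3.02-fold lower in progenitors (-1.60 ± 0.14, adjusted p = 3.91e-09). It was detected on none of the Gr1+ arrays. The annotation assigns the kept Rps24 probes to different transcript records, and the others gave -0.44 (ILMN_3126986, called lower) and 0.10 (ILMN_2625060, not called).

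Rps13 by probe ILMN_2482591 came next. It read 7.23, 7.40 and 7.55 in B6 and 7.47, 7.92 and 7.72 in D2 LSK cells, and 6.36, 6.25 and 6.41 in B6 and 6.44, 6.55 and 6.82 in D2 progenitors. The groups were apart (-1.08 ± 0.13, adjusted p = 4.33e-07), while its other probe gave -0.19 and was not called. The Rpl23 probe ILMN_2946482 was 1.68-fold lower in progenitors (-0.75 ± 0.14, adjusted p = 0.000144) with no overlap. Its levels in LSK cells were 14.06, 14.97 and 14.15 in B6 and 14.53, 14.44 and 14.53 in D2, and progenitors had the lowest mean of the 4 cell types for this probe. Rps21 (-0.53 ± 0.14) and Rpl32 (-0.51 ± 0.18, adjusted p = 0.0268) were also lower, and lost their calls in 3 and 13 of the alternatives.

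Higher in progenitors was probe ILMN_2594971 of Rpl38, a large-subunit protein that in mice acts in the translation of Hox messengers. It read 6.40, 6.64 and 6.57 in B6 and 6.39, 7.45 and 6.69 in D2 LSK cells, against 8.16, 8.10 and 7.69 in B6 and 8.43, 7.92 and 7.36 in D2 progenitors. The groups overlapped through D2 LSK replicate 2 (7.45), 1 of the 2 arrays with few detected probes, and the difference was 1.26 ± 0.19 (adjusted p = 1.21e-05). The other Rpl38 probe gave -0.06. Also higher were ILMN_2878424 of Rpl30 (0.81 ± 0.18), Rps27l (0.61 ± 0.19), ILMN_2946616 of Rps2 (0.61 ± 0.15), ILMN_2453804 of Rpl28 (0.58 ± 0.21) and ILMN_2730005 of Rpl29 (0.54 ± 0.14), and the groups of each overlapped. Of these, Rps27l, Rpl28 and Rpl29 lost their calls in 3, 13 and 3 of the alternatives, and Rpl30 with 75th percentile scaling (0.29, adjusted p = 0.457). In D2 this Rpl29 probe was detected on no LSK array and on 1 of 3 progenitor arrays, so its D2 levels were mostly not above background.

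**Figure D3:**
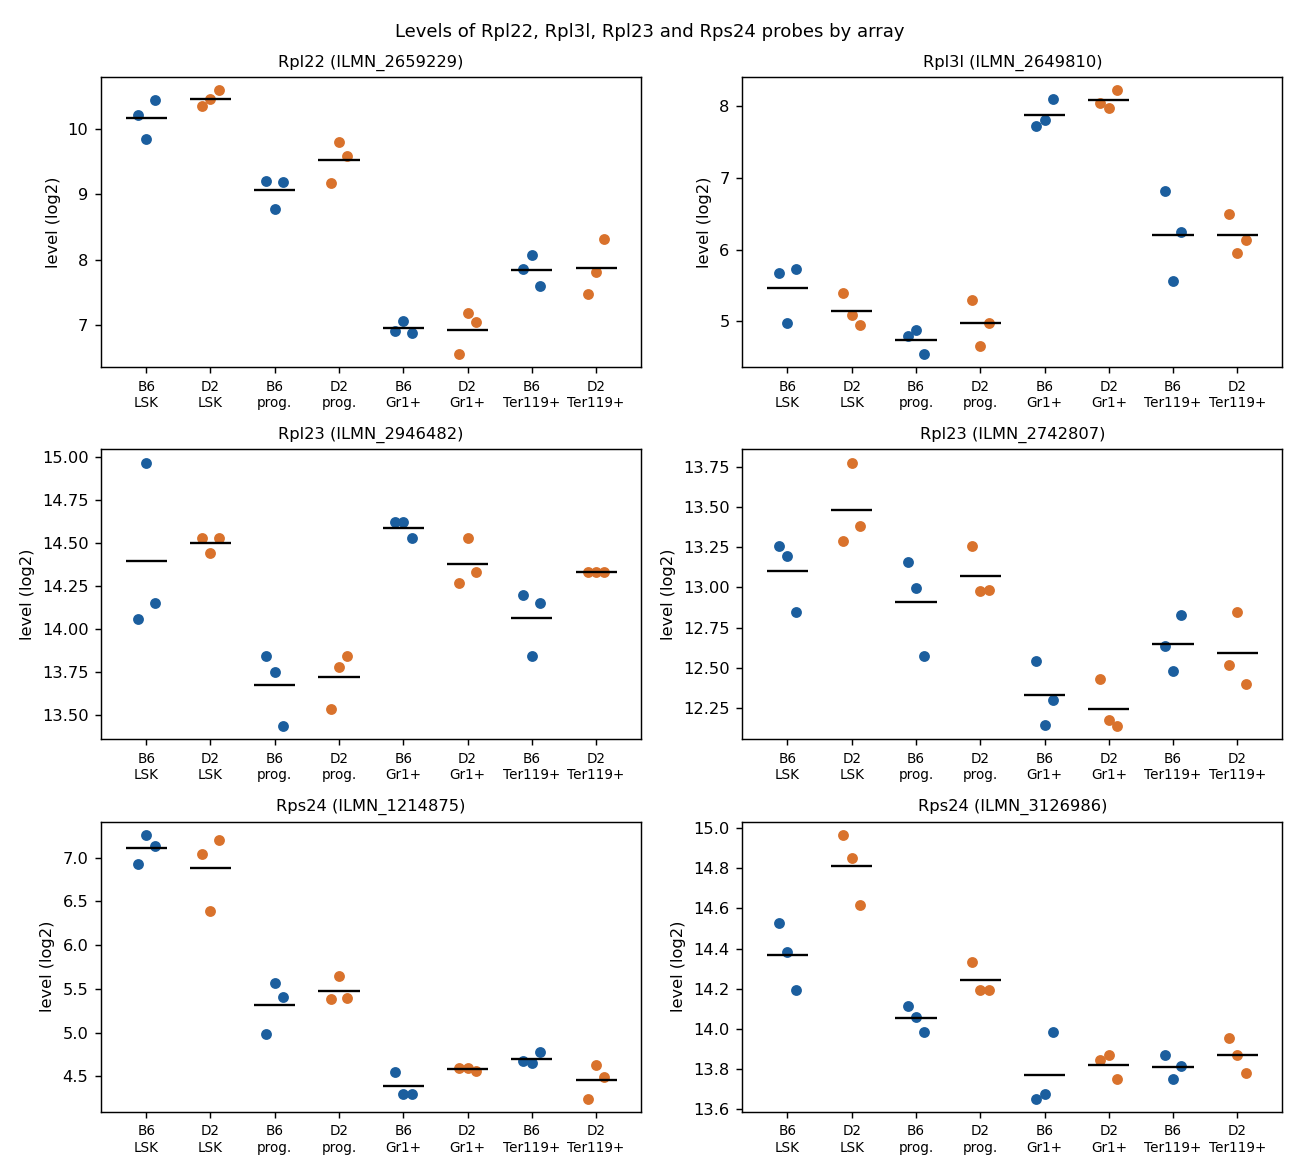
Log2 levels per array of Rpl22, Rpl3l and of 2 probes each of Rpl23 and Rps24; points are arrays, lines are group means, blue is B6 and orange is D2, and each panel has its own axis. Rpl22 steps down from LSK cells to Gr1+ cells, Rpl3l is highest in Gr1+ cells, and the probes of Rpl23 and of Rps24 differ in their pattern.

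Other genes of translation are given from lists drawn up for this comparison, to be read against all kept probes, of which 21.4% were higher in progenitors than in LSK cells and 37.8% and 30.2% lower in Gr1+ and Ter119+ cells than in progenitors. Of 97 probes of mitochondrial ribosomal proteins, 65 were higher in progenitors than in LSK cells and none lower, with a median of 0.53. In Gr1+ cells 86 were lower and 2 higher (median -1.15), and in Ter119+ cells 85 were lower and none higher (median -0.78). Of 23 probes of ribosome assembly factors, 14 were higher in progenitors (median 0.54), 22 were lower in Gr1+ cells (median -1.57), and 21 were lower and 2 higher in Ter119+ cells (median -1.28). Nop56, which guides the methylation of ribosomal RNA, was higher in progenitors (1.07 ± 0.30) and lower in Gr1+ cells (-2.74 ± 0.30). Nucleolin (Ncl) was lower in Gr1+ cells by both of its named probes (-2.63 and -2.44). Of 34 probes of initiation factors, 13 were higher and 2 lower in progenitors, 27 lower in Gr1+ cells, and 18 lower and 3 higher in Ter119+ cells, the 3 being probes of Eif5. Of 13 probes of elongation and release factors, 3, 12 and 9 were called, higher in progenitors and lower in Gr1+ and Ter119+ cells. Among 7 probes of growth regulators, 4 were higher in progenitors, 3 were lower in Gr1+ cells and 2 in Ter119+ cells. The 4 became 2 with median and 1 with 75th percentile scaling. Myc, which drives ribosome production, was among them, at 0.48 ± 0.12, -1.36 ± 0.12 and -1.32 ± 0.12. Scaled to the median or the 75th percentile, the medians of the mitochondrial and assembly lists kept these directions.

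The second question was whether the strains differ in these genes. In LSK cells 8 of the 72 probes were lower in D2 and none higher, where 5.18% of all kept probes were lower and 2.49% higher. In progenitors 7 were lower and none higher (3.32% and 2.01% of all), and in Gr1+ cells 3 and none (3.46% and 2.38%). In Ter119+ cells 11 were lower and none higher (8.23% and 7.15%). Among the 60 probes detected on every array, 1, 1, 1 and 6 were lower in LSK cells, progenitors, Gr1+ and Ter119+ cells and none higher, so most calls outside Ter119+ cells came from probes not detected on every array. The matching share of all probes is not given here. A low D2 level can itself remove a probe from this set. The Rps3 probe ILMN_2594103 and the Rpl29 probe ILMN_2730005, with the lowest strain differences, were detected on 23 and 13 arrays. The medians of the members were -0.03, 0.08, 0.04 and -0.36 in this order, against -0.09, -0.02, 0.00 and -0.01 for all kept probes. Over the alternatives the LSK median ran from -0.24 (median scaling) to 0.16 (scaling to the 75th percentile), and the second scaling moved the median of all kept probes to 0.42, while the Ter119+ median stayed between -0.40 and -0.26 under every alternative.

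The calls gathered in few genes. The 9 probes of Rps3, Rpl29, Rps15a, Rps3a1 and Rpl21 held all 8 calls in LSK cells, all 7 in progenitors, all 3 in Gr1+ cells and 6 of the 11 in Ter119+ cells. These genes were grouped after their values were seen. The other 63 probes ran from -0.58 to 0.66 in LSK cells, from -0.75 to 0.56 in progenitors and from -0.43 to 0.44 in Gr1+ cells. None of them passed there, which follows from the grouping, since it took out every probe called in these cell types. At an unadjusted p under 0.05 in limma were 3, 3 and 1 of them. Of all 72 members 11, 11 and 6 were, and of all kept probes 19.9%, 13.2% and 13.3%. Because of the grouping, the counts of the 63 are not set against these shares.

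**Figure D4:**
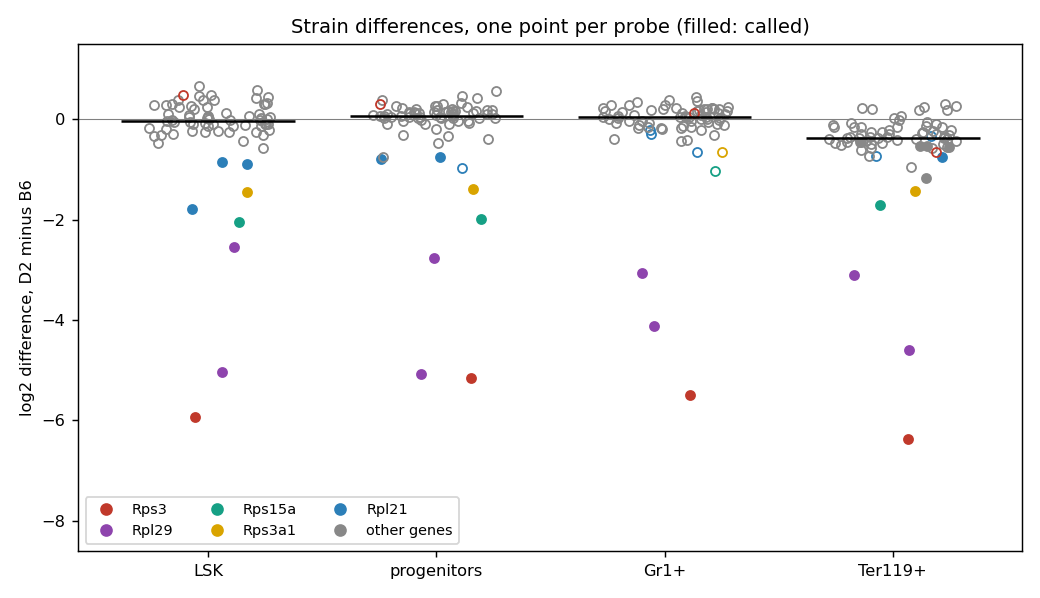
Log2 difference of D2 minus B6 for the 72 probes in each cell type; points are probes, filled points passed the test, lines are medians and colours mark 5 genes. Probes of Rps3 and Rpl29 lie at -2.54 or below in each cell type, apart from the other Rps3 probe, and the median in Ter119+ cells is -0.36.

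Rps3, a small-subunit protein at the entry of the message that also acts in DNA repair, gave a different picture with each probe. Probe ILMN_2594103 read 12.47, 12.61 and 12.38 in B6 and 6.41, 6.90 and 6.36 in D2 LSK cells. Progenitor arrays read 12.30, 12.03 and 11.78 in B6 and 7.72, 6.82 and 6.10 in D2. The strains were far apart in both. In Gr1+ cells it read 11.35, 10.83 and 11.04 against 6.26, 5.49 and 4.96, and in Ter119+ cells 11.80, 12.30 and 11.99 against 5.45, 6.03 and 5.50. The D2 level was 60.8-fold lower in LSK cells (-5.93 ± 0.32, adjusted p = 3.18e-12), 35.6-fold in progenitors, 45.4-fold in Gr1+ and 82.4-fold in Ter119+ cells. It was detected on 23 of the 24 arrays, all but 1 D2 Gr1+ array.

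Probe ILMN_2637639 of Rps3 showed no such gap. It read 9.57, 9.56 and 8.89 in B6 and 9.92, 9.80 and 9.75 in D2 LSK cells, a difference of 0.48 ± 0.35 (adjusted p = 0.484). In progenitors it was 0.31 ± 0.35, in Gr1+ cells 0.12 ± 0.35 and in Ter119+ cells -0.65 ± 0.35 (adjusted p = 0.23), none of which passed. With median scaling the LSK difference was -0.14. The annotation assigns both probes to the same transcript record. Between cell types they ran alike: Gr1+ cells were lower than progenitors by -1.14 with one and by -1.11 with the other. Of the 14 genes with at least 2 kept probes, Rps3 was the 1 with a probe called between the strains and another not called, with differences more than 1 apart on the log2 scale, and this held in all 4 cell types. The Rpl29 probes were also more than 1 apart in each cell type, but both were called lower in D2.

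Rpl29, a large-subunit protein that supports high rates of translation and whose loss in mice slows growth, was lower in D2 by both of its probes. Probe ILMN_2857570 was detected on every array. It read 12.68, 12.59 and 12.58 in B6 and 9.82, 10.61 and 9.81 in D2 LSK cells, and 12.88, 12.77 and 12.41 against 10.45, 10.10 and 9.21 in progenitors. Gr1+ arrays read 11.63, 11.44 and 11.48 against 8.84, 8.23 and 8.28, and in Ter119+ cells 12.33, 11.80 and 12.33 against 9.24, 9.31 and 8.59. No D2 array reached a B6 array of the same cell type, and the D2 level was 5.80-fold, 6.80-fold, 8.40-fold and 8.62-fold lower in LSK cells, progenitors, Gr1+ and Ter119+ cells (highest adjusted p = 6.09e-07).

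Probe ILMN_2730005 of Rpl29 was not detected on any D2 array of LSK, Gr1+ or Ter119+ cells, so its fold there is a lower bound. The bound sets each D2 array at its lowest detected signal, or at the probe's own if higher. It read 9.33, 9.48 and 9.58 in B6 LSK cells against 4.33, 4.47 and 4.47 in D2 and was at least 17.7-fold lower (adjusted p = 1.22e-14). In Gr1+ cells it read 8.54, 8.53 and 8.62 against 4.65, 4.27 and 4.43 (at least 11.3-fold lower), and in Ter119+ cells 9.33, 8.97 and 9.01 against 4.51, 4.32 and 4.66 (at least 19.0-fold lower). In progenitors, where 1 of 3 D2 arrays detected it, it read 10.20, 10.21 and 9.67 against 5.33, 5.04 and 4.48, a difference of -5.08 ± 0.20.

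**Figure D5:**
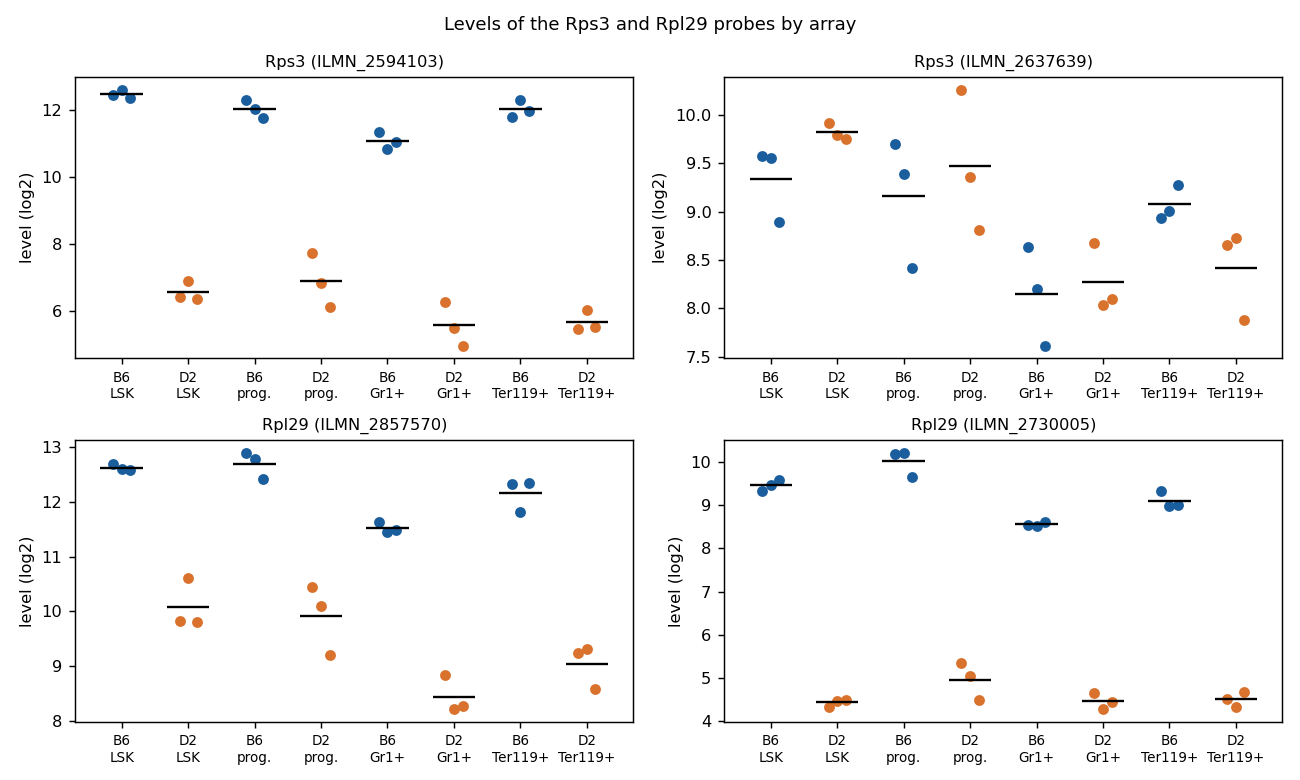
Log2 levels per array of both Rps3 and both Rpl29 probes; points are arrays, lines are group means, blue is B6 and orange is D2, and each panel has its own axis. The D2 arrays lie far below B6 for 1 Rps3 probe and both Rpl29 probes, and overlap or lie near B6 for the other Rps3 probe.

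Smaller strain differences came from dimmer probes. The Rps15a probe read 6.76, 7.29 and 6.86 in B6 LSK cells and 4.40, 5.84 and 4.53 in D2. It was detected on no D2 array and was at least 3.13-fold lower in LSK cells, at least 2.76-fold in progenitors and at least 2.30-fold in Ter119+ cells, but with 75th percentile scaling none of these calls held (adjusted p = 0.157, 0.111 and 0.117), while in Gr1+ cells it did not pass (-1.03 ± 0.33, adjusted p = 0.0713). Rps3a1 read 6.28, 6.59 and 5.75 in B6 and 4.75, 4.31 and 5.23 in D2 LSK cells, with differences of -1.44 ± 0.28 there, -1.39 in progenitors and -1.43 in Ter119+ cells. In Gr1+ cells it was -0.66 and did not pass. Only 1 of 3 D2 arrays detected it in each cell type, so these differences are set against a level mostly not above background. Its calls in LSK cells (-0.81, adjusted p = 0.143) and progenitors (adjusted p = 0.0721) were lost with median scaling, and all 3 with 75th percentile scaling (adjusted p = 0.515, 0.537 and 0.118). All 3 probes of Rpl21 were called lower in D2 LSK cells (-1.79, -0.89 and -0.85). For ILMN_1225201 the D2 LSK arrays read 6.90, 4.44 and 6.98 against 7.88, 7.69 and 8.12 in B6, so the lowest value came from D2 LSK replicate 2, and without that array the difference was -0.96 (adjusted p = 0.0171). With only the groups compared, the LSK call of ILMN_1225201 was lost (adjusted p = 0.321). The LSK calls of Rps15a (adjusted p = 0.0524) and Rps3a1 (adjusted p = 0.0741) were lost there too.

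Genes that encode ribosomal proteins have many near-identical copies elsewhere in the genome, and probe sequences were not used here. Whether a strain difference reflects the transcript's level or its match to the probe was not tested for any of these genes.

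In Ter119+ cells the other 63 probes had a median of -0.34 and 5 passed, all lower in D2, with 23 at an unadjusted p under 0.05. Among all 72 members 11 were called lower and 29 had an unadjusted p under 0.05. Over all kept probes the shares were 8.23% and 28%, and because of the grouping the 63 are not set against them. Rps27l, a copy of Rps27 that p53 induces, read 10.77, 10.98 and 10.55 in B6 and 10.23, 9.36 and 9.22 in D2, 2.24-fold lower with no overlap (-1.16 ± 0.27, adjusted p = 0.00491). The call was lost with 75th percentile scaling (adjusted p = 0.0654) and with only the groups compared (adjusted p = 0.0523). It had differences of -0.09, 0.02 and 0.29 in the other cell types. The other 4 were ILMN_1227653 of Rpl27a (-0.55), ILMN_2940017 of Rps13 (-0.53), Rpl24 (-0.53) and Rpl37 (-0.45), with adjusted p from 0.0344 to 0.0481. Without D2 Ter119+ replicate 2 or 3 the count of all members called fell from 11 to 6 or 7, and without the 2 arrays of few detected probes it was 22.

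Whether the strain difference varied between cell types was tested by a moderated F test. No member passed, where 5.23% of all kept probes did, and 5 members had an unadjusted p under 0.05 in limma, as did 16.8% of all kept probes. The smallest adjusted p was that of Rps27l (0.0856), followed by ILMN_2730005 of Rpl29 (0.103). Rpl37 (0.244), Rps4x (0.290), ILMN_3073486 of Rpl31 (0.297) and ILMN_1227653 of Rpl27a (0.306) came next. For Rps3 it was 0.359 with the probe that differed between strains and 0.475 with the other. With other settings the count was between 0 and 6.

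Across the 24 arrays, which share strain and cell type in groups of 3, 47 of the 72 probes had a Pearson's r over 0.8 with the median of the other members, as a description. The 8 under 0.5 were Rpl3l (-0.88), the Rpl23 probe ILMN_2946482 (-0.40), both Rpl29 probes, 1 probe each of Rps13 and Rps3, Rps3a1 and Rps15a.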

How the data were processed

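Messenger RNA was measured on 24 arrays. The deposited raw intensity values were neither background-subtracted nor normalized, per the file headers and their range (67.9 to 46120), and GenomeStudio is the tool named in the submitters' processing notes. The authors' deposited detection column holds a fraction that rises with intensity, and 1 minus it was taken as the detection p. The authors' deposited series matrix holds log2 values within 0.00113 of quantile-normalized log2 raw intensities and served as an alternative. The 24 deposited call columns were not used.

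Intensities were corrected with limma 3.58.1 in R 4.3.3 (neqc, negative controls inferred from detection p, offset 16), quantile-normalized and put on the log2 scale. A linear model with 8 group means was fitted to each of 12668 kept probes (16 residual degrees of freedom, prior 6.28). Tests were two-sided, adjusted by Benjamini and Hochberg over all kept probes, and called under 0.05. Averages over both strains were used between cell types. The sources used here name no batch, slide or scan.

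Tested on simulated data with 12668 probes, the fit recovered 99% of probes changed by -2 and 54% of those changed by -1 in the LSK strain comparison, and 100% and 88% in Gr1+ cells minus progenitors. Named were all Rps3 and Rpl29 probes, up to 6 called members with the highest and 6 with the lowest difference per comparison, the 6 smallest interaction p-values, and 3 first and last in level. Members and lists were chosen with earlier results of these data known. Figures used Python 3.11.15 and matplotlib 3.10.9. The number of arrays limits the precision. Alternatives changed the background correction, scaling, detection filter, probe choice, variance model and arrays used.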

Additional observations from a re-analysis of the deposited data

How the results depend on the processing

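The lower level of the members in Gr1+ and Ter119+ cells than in progenitors kept its direction under every alternative run, with 49 to 70 and 28 to 65 of the members called in either direction and medians from -1.16 to -0.89 and from -0.84 to -0.42. The 28 came from B6 alone, while D2 alone, with as many arrays, called 56, and the cause was not tested. Both B6 alone and D2 alone called 10 in progenitors minus LSK cells.

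The strain counts moved more. In Ter119+ cells 11 were called, but 19 with no background correction, 6 with median scaling, 4 with 75th percentile scaling, 18 with the series matrix values, 6 with detection required on every array compared, 6 with only the groups compared, 33 with array weights and 22 without the 2 arrays of fewest detected probes. In LSK cells the 8 became 5 (median scaling), 4 (75th percentile), 2 (detection on every array), 5 (1 probe per gene or the mean of a gene's probes) and 3 (only the groups compared). In progenitors the 7 became 4 (75th percentile or 1 probe per gene) and 2 (detection on every array). In Gr1+ cells the 3 became 1 (detection on every array), 6 (only the groups compared, 1 of them higher) and 8 (array weights, 1 of them higher). Progenitors minus LSK cells went from 16 to 10 (75th percentile) and 8 (1 probe per gene). The interaction went from 0 to 2 with no background correction, with the series matrix values or without the 2 arrays, and to 6 with array weights. Apart from the settings that tested fewer probes or arrays, the cause was not tested. The share of all kept probes called under each alternative is not given. Counts under alternatives, here and in the other paragraphs, therefore have no matched background.

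Leaving out 1 array at a time gave 6 to 9 calls in LSK cells, 5 to 9 in progenitors, 3 to 4 in Gr1+ and 6 to 16 in Ter119+ cells, 12 to 19 in progenitors minus LSK cells, 66 to 70 in Gr1+ cells minus progenitors, 52 to 65 in Ter119+ cells minus progenitors and 0 to 1 in the interaction. The lowest Ter119+ count was without D2 replicate 2.

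Replicate numbers were not used to pair the arrays in the main fit. Over 84 same-numbered pairs the correlation of deviations from the group means ran from -0.38 to 0.37 and 37 were over 0.1. Their median was 0.077, against -0.022 for pairs with other numbers, and whether the numbers mark pairs was not tested. With the number as a block the counts were 8, 6, 3 and 16 for the strains in LSK cells, progenitors, Gr1+ and Ter119+ cells, 17, 68 and 61 between cell types and 0 in the interaction. Of the named probes' values under alternatives, 95 lost their call, 22 gained one and 19 turned their sign, all in 6 comparisons of Rps3 and Rpl29 probes that were called neither as reported nor under those alternatives. For Rps3 ILMN_2637639 the strain difference in LSK cells became -0.14 (median scaling), in progenitors -0.084 (without the 2 arrays of fewest detected probes, and -0.084 to 0.64 leaving out 1 array) and in Gr1+ cells -0.15 to 0.36 (leaving out 1 array). In progenitors minus LSK cells it became 0.13 (median scaling). There ILMN_2594103 became 0.13 (median scaling) and 0.32 (D2 alone), and -0.27 to 0.13 leaving out 1 array. Rpl29 ILMN_2857570 became 0.36 (median scaling), 0.14 (75th percentile), 0.033 (array weights) and 0.069 (B6 alone), and -0.18 to 0.13 leaving out 1 array. Rpl21 probe ILMN_1222250 in progenitors lost its call in 27 of 34 alternatives.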
